A study of Mus musculus with 8 samples.

Results

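The 38 genes described here mark macrophages and other leukocytes, and they were read from a table of 24033 genes measured by RNA sequencing of mouse soleus muscle. Each was found by its symbol in that table, and all 38 had a row. The set holds 10 macrophage identity genes, 5 genes of tissue-resident macrophages, the 3 subunits of complement C1q, 4 Fc receptor and adaptor genes, 3 genes of lysosomal enzymes, 5 genes of leukocytes in general, 4 genes of MHC class II, 3 chemokines and 1 T cell gene.

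The soleus is a calf muscle rich in slow fibres. The controls, MyoCre, have the genotype Myogenin-Cre/+, and K15-SKO mice have Myogenin-Cre/+;K15F/F, where F stands for a floxed Klf15 allele. Cre was thus present in both groups, and the floxed alleles were the only labelled difference. Klf15 encodes a transcription factor that controls amino acid and lipid use in muscle. There were 4 mice of each genotype, all aged 2 months, and the labels give no treatment. Myogenin drives this Cre in skeletal muscle cells, so the deletion was not directed at macrophages. The values are FPKM, fragments per kilobase of transcript scaled to the size of the library, and they can be compared between genes because they are divided by length. Libraries are named by genotype and replicate number (MyoCre 1 to 4, K15-SKO 1 to 4).

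Macrophages of adult skeletal muscle lie in the connective tissue between fibres and along vessels. They depend on signalling through the receptor Csf1r, whose ligands are Csf1 and Il34, take up debris through scavenger and Fc receptors, digest it in lysosomes, make complement C1q, and in part present peptides on MHC class II. After injury, Ccl2 draws in monocytes through the receptor Ccr2. The tissue measured here was whole muscle, so fewer macrophages and less RNA per macrophage cannot be told apart in any value below.

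No member passed the test between genotypes. Of the 38 genes, 30 averaged 1 FPKM or more in the 8 libraries and were tested with limma on log2(FPKM + 0.5), and 8 were too low to judge. At an adjusted p of 0.05 (Benjamini-Hochberg over all 12535 tested genes), 0 of the 30 were called, beside 0.55% of all tested genes. A fit that weights libraries by their agreement called 2 of them, Ctss and Fcgr3 (adjusted p = 0.0156 and 0.0396 by limma), with K15-SKO 1 weighted most (4.64), beside 0.806% of all tested genes called lower in that fit. At an unadjusted p under 0.05, 3 members were lower in K15-SKO (Ctss, Fcgr3 and Lyve1), beside 3.43% of all tested genes, and 0 were higher, beside 0.901%. The members' adjusted p-values from limma lay between 0.838 and 0.997. A more visible pattern was in 1 animal: 23 of the 30 tested members had their lowest value in K15-SKO 1, beside 6.65% of all tested genes.

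Upstream sequence is shown for 4 members on which the results below turn: Ctss, the member with the smallest p; C1qb, whose values went with those of Csf1r and Folr2; and H2-Aa and H2-Eb1, as examples of the MHC class II genes. Each is the 250 bases before the RefSeq start (build GRCm38.p6), 5′ to 3′ on the strand of the gene. In Ctss and C1qb the capitals mark GAGGAA, the core of the site bound by PU.1, the transcription factor encoded by the member Spi1 that is required to make macrophages. In H2-Aa and H2-Eb1 they mark CTGATTGG, the Y box of MHC class II promoters, which NF-Y binds.
Ctss, chr3:95526536-95526785, plus strand: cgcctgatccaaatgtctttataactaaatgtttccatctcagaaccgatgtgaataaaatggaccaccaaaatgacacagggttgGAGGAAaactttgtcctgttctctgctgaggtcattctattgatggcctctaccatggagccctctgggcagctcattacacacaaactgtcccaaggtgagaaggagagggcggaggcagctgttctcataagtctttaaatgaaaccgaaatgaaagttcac
C1qb, chr4:136886201-136886450, minus strand: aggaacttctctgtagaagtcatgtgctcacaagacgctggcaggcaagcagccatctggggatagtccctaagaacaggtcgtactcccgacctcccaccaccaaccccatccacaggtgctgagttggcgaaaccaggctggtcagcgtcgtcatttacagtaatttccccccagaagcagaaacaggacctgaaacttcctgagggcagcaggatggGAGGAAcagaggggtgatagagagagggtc
H2-Aa, chr17:34287824-34288073, minus strand: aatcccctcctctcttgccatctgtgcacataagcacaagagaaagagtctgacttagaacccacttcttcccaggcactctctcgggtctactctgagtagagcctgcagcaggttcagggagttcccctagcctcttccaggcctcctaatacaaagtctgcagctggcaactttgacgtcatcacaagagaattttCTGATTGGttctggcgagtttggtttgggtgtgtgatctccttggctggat
H2-Eb1, chr17:34305617-34305866, plus strand: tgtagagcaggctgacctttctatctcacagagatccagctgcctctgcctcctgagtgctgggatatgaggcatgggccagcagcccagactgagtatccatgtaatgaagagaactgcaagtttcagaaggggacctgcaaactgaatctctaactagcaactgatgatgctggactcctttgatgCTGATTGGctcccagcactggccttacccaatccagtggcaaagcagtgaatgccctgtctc

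The RefSeq promoter table held 25 of the 38 members, with 29 windows. On either strand, GAGGAA was in 15 of the 29 (51.7%), from 14 genes, and in 23.3% of all 32851 windows of that length. CTGATTGG was in 2 of the 29 (6.9%) and in 3.83% of all windows. In the windows printed it begins 51 bases before the start of H2-Aa and 62 bases before that of H2-Eb1, and GAGGAA begins 164 bases before that of Ctss and 30 bases before that of C1qb. The H2-Eb1 window also holds an exon of the antisense gene Gm20513. These matches describe letters only. The members without a window are Csf1r, Adgre1, Cd14, Itgb2, Spi1, Lyve1, C1qa, Tyrobp, Cd52, Cd74, H2-Ab1, Ccl2 and Ccl7.

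Klf15 itself checked the labels. It had 41.6 ± 12.7 FPKM in MyoCre (SD, n = 4; range 22.8 to 49.8) and 16.2 ± 2.58 FPKM in K15-SKO (SD, n = 4; range 13.1 to 19.3). The libraries did not overlap, with a log2 fold change of -1.28 (SE 0.25, adjusted p = 0.0315 by limma; two-sided exact permutation p = 0.0286, the smallest the 70 assignments allow). With median-of-ratios scaling the limma call was lost (adjusted p = 0.0868). The tissue check held too, with Myl2 at 4918 ± 945 FPKM in MyoCre and 4776 ± 1448 in K15-SKO (SD, n = 4). Summed FPKM per library ran from 519884 to 652274. In K15-SKO 3 the RNA Rn7sk took 14.1% of the sum, beside 8.67% to 10.5% in the other libraries, and the erythroid genes summed to 2039 FPKM beside 284 to 578. MyoCre 2 was the only library with Y-linked expression (mean 16.2 FPKM) and the only one nearly without Xist. The study's text gives 4 mice per genotype, and p-values measure the spread between these samples.

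The members were low to moderate in soleus, with a median of 3.51 FPKM over the 30 tested, beside 6.11 FPKM over all tested genes. Cxcl12 (42.8 FPKM over the 8 libraries) and Lyz2 (37.0 FPKM) stood at the top, followed by Cd74 (22.0), H2-Aa (17.0), C1qa (12.1), H2-Ab1 (11.0) and C1qc (10.3). They also varied more from mouse to mouse than most genes: the median coefficient of variation over the 8 libraries was 29.3%, beside 21.4% over all tested genes. Within genotypes it was 20.7% in MyoCre, beside 18.0%, and 34.6% in K15-SKO, beside 23.3%. A gene with 1 kb of transcript at 1 FPKM rested on an estimated 8.13 to 22.4 fragments in the 5 libraries where this could be read, so counting error is part of the spread of the lowest members.

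**Figure D1:**
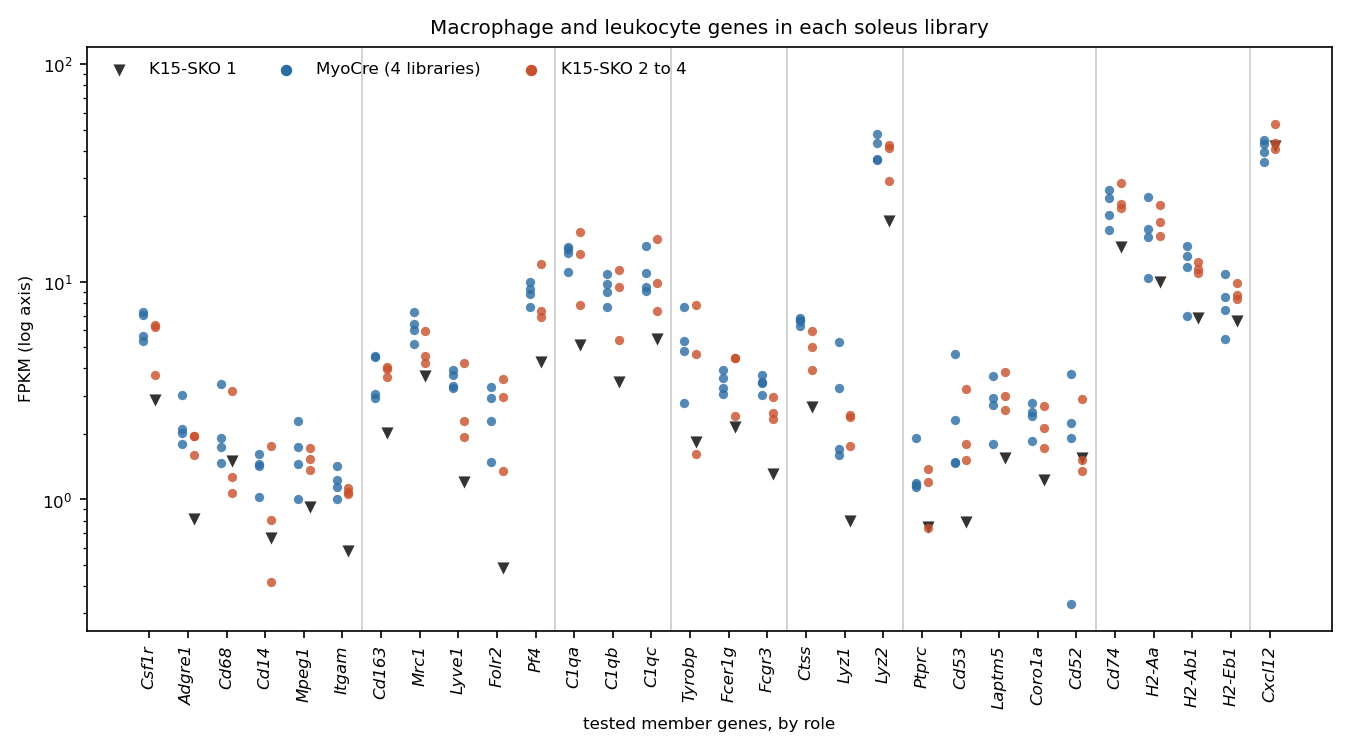
FPKM of the 30 tested members (log axis) in each library, grouped by role from left to right. Blue circles are the 4 MyoCre libraries, orange circles K15-SKO 2 to 4 and black triangles K15-SKO 1, which is the lowest point for 23 of the 30 genes.

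The ligands of the macrophage growth factor receptor were measured beside the members. Csf1, the main growth factor of macrophages, was at 3.67, 4.30, 3.79 and 3.94 FPKM in MyoCre 1 to 4 and at 2.20, 3.33, 2.07 and 3.14 FPKM in K15-SKO 1 to 4. The genotypes did not overlap, yet the difference did not pass the test (log2 fold change -0.49, SE 0.18, unadjusted p = 0.0185, adjusted p = 0.876 by limma). Il34, the second ligand, had 2.99 ± 0.74 FPKM in MyoCre and 2.88 ± 0.83 in K15-SKO (SD, n = 4).

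Their receptor Csf1r (chromosome 18, 61100598 to 61132149, plus strand, mm10) was at 5.35, 7.27, 7.05 and 5.67 FPKM in MyoCre 1 to 4 and at 2.86, 6.33, 6.23 and 3.75 FPKM in K15-SKO 1 to 4. K15-SKO 1 and 4 lay below every MyoCre library, while K15-SKO 2 and 3 lay within their range. The log2 fold change was -0.42 (95% interval -0.94 to 0.09). Adgre1, the F4/80 antigen, was at 1.80, 2.02, 2.11 and 3.02 FPKM in MyoCre and at 0.81, 1.96, 1.96 and 1.59 FPKM in K15-SKO, so that only K15-SKO 1 and 4 fell outside the MyoCre range. Of the 6 tested identity genes, 0 were called and all 6 had a negative log2 fold change, with a median of -0.34 beside -0.12 for all tested genes. The other 4 ranged from -0.49 for Cd14, the co-receptor for bacterial lipopolysaccharide, to -0.15 for Mpeg1, which encodes a pore-forming protein of macrophages. Cd68, a lysosomal membrane protein, did not follow the rest: it was highest in MyoCre 1 (3.40 FPKM) and K15-SKO 3 (3.16 FPKM) and between 1.08 and 1.91 FPKM in the other 6 libraries. Itgam, the CD11b integrin, was the lowest tested member with a mean of 1.08 FPKM.

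Genes of tissue-resident macrophages gave the same picture, with 0 of 5 called and log2 fold changes between -0.58 and -0.13. Lyve1, a hyaluronan receptor of perivascular macrophages and of lymphatic endothelium, was at 3.26, 3.94, 3.33 and 3.74 FPKM in MyoCre 1 to 4 and at 1.20, 4.23, 1.95 and 2.29 FPKM in K15-SKO 1 to 4. In K15-SKO, 3 libraries were below all MyoCre libraries and K15-SKO 2 was above all of them. Its log2 fold change was -0.58 (SE 0.26, unadjusted p = 0.0446, adjusted p = 0.957 by limma). Over 6 genes of lymphatic endothelium, 5 of them tested, summed levels were 16.0 to 21.9 FPKM in MyoCre and 11.2 to 17.7 FPKM in K15-SKO, and their part in the Lyve1 values was not tested. Mrc1, the mannose receptor CD206, was at 5.99, 5.19, 6.37 and 7.23 FPKM in MyoCre and at 3.69, 5.92, 4.26 and 4.59 FPKM in K15-SKO. Here only K15-SKO 2 lay within the MyoCre range, and the other K15-SKO libraries lay below it (log2 fold change -0.40, 95% interval -0.80 to 0.00). Cd163, the haemoglobin scavenger receptor, had 3.77 ± 0.90 FPKM in MyoCre and 3.44 ± 0.96 in K15-SKO (SD, n = 4). Folr2, a folate receptor of resident macrophages, had the widest drop in a single library: 0.48 FPKM in K15-SKO 1, which is 19.3% of the MyoCre mean, beside 2.97, 3.58 and 1.36 FPKM in K15-SKO 2 to 4 and 1.48 to 3.30 FPKM in MyoCre. Pf4, a chemokine found in platelets and in resident macrophages, lay between 7.66 and 9.97 FPKM in the MyoCre libraries and between 4.28 and 12.1 FPKM in those of K15-SKO.

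The C1q subunits form the recognition part of the classical complement pathway, and their genes lie together on chromosome 4 (C1qb 136880129 to 136886187, C1qc 136889804 to 136893065, C1qa 136895917 to 136898803, all on the minus strand, mm10). C1qa was at 14.1, 13.6, 14.4 and 11.1 FPKM in MyoCre 1 to 4 and at 5.14, 13.4, 16.9 and 7.79 FPKM in K15-SKO 1 to 4. C1qb was at 7.64, 10.9, 9.78 and 8.99 FPKM in MyoCre and at 3.48, 9.47, 11.3 and 5.41 FPKM in K15-SKO. C1qc was at 11.0, 14.6, 9.48 and 9.06 FPKM in MyoCre and at 5.47, 9.86, 15.7 and 7.36 FPKM in K15-SKO. Each subunit was therefore highest in K15-SKO 3 and lowest in K15-SKO 1, so that the K15-SKO libraries lay on both sides of the MyoCre range. Summed over the subunits, MyoCre libraries held 29.2 to 39.1 FPKM and K15-SKO libraries 14.1, 32.7, 43.9 and 20.6 FPKM. The log2 fold changes were -0.41, -0.43 and -0.27 for C1qa, C1qb and C1qc, and 0 of the 3 were called.

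The Fc receptor Fcgr3, which binds immunoglobulin G, was 1 of the 2 members whose libraries did not overlap between genotypes, beside 2.72% of all tested genes lower in K15-SKO without overlap. No member was higher without overlap, beside 0.63%. Fcgr3 was at 3.02, 3.48, 3.41 and 3.73 FPKM in MyoCre 1 to 4 and at 1.32, 2.50, 2.96 and 2.35 FPKM in K15-SKO 1 to 4. Its closest libraries, MyoCre 1 and K15-SKO 3, were nearly equal. The log2 fold change was -0.53 (SE 0.21, 95% interval -0.98 to -0.08, unadjusted p = 0.0249, adjusted p = 0.933 by limma). Its extracellular part resembles that of Fcgr2b, so reads may be shared between them. The signalling adaptors that partner such receptors overlapped between genotypes: Tyrobp (DAP12) spread over 2.79 to 7.65 FPKM in MyoCre libraries and over 1.62 to 7.82 FPKM in K15-SKO libraries. For Fcer1g these were 3.05 to 3.94 FPKM and 2.14 to 4.47 FPKM.

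Ctss, a lysosomal cysteine protease that trims the invariant chain of MHC class II, was the other member without overlap. It was at 6.84, 6.60, 6.27 and 6.70 FPKM in MyoCre 1 to 4 and at 2.66, 5.02, 5.92 and 3.93 FPKM in K15-SKO 1 to 4. The MyoCre values were tight (6.60 ± 0.24 FPKM, SD, n = 4), and all 4 K15-SKO values lay below them (4.38 ± 1.41 FPKM, SD, n = 4). Its log2 fold change of -0.59 (SE 0.21, 95% interval -1.05 to -0.13) had the smallest p of all tested members, unadjusted p = 0.0160 and adjusted p = 0.838 by limma. After median-of-ratios scaling, which moved the median of all genes from -0.12 to 0.00, 0 members were without overlap and 23 of the 30 had a negative log2 fold change. Lyz2, the main lysozyme of macrophages, was at 36.2, 36.6, 43.4 and 47.8 FPKM in MyoCre and at 19.0, 41.2, 42.5 and 29.2 FPKM in K15-SKO, with K15-SKO 1 and 4 below all MyoCre libraries. Lyz1, its neighbour on chromosome 10, spread over 1.61 to 5.30 FPKM in MyoCre libraries and over 0.79 to 2.45 FPKM in K15-SKO libraries. The lysozyme genes are near-identical copies, and how reads were split between them is uncertain.

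The genes of leukocytes in general overlapped between genotypes in all 5 cases. Ptprc, the CD45 phosphatase, was at 1.14, 1.16, 1.19 and 1.92 FPKM in MyoCre 1 to 4 and at 0.75, 1.21, 0.74 and 1.38 FPKM in K15-SKO 1 to 4. Cd53, a tetraspanin, was at 1.47, 1.48, 2.32 and 4.66 FPKM in MyoCre and at 0.79, 1.52, 1.81 and 3.22 FPKM in K15-SKO. Both were highest in MyoCre 4, and within K15-SKO both were highest in replicate 4. Laptm5, a lysosomal membrane protein of blood cells, had nearly equal group means of 2.79 ± 0.78 FPKM and 2.75 ± 0.96 FPKM (SD, n = 4). Coro1a, an actin regulator, had a log2 fold change of -0.27. Cd52, a short surface glycopeptide, spread from 0.33 FPKM in MyoCre 1 to 3.77 FPKM in MyoCre 4, so that its interval of -0.98 to 1.06 was among the widest.

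MHC class II genes present peptides to helper T cells. H2-Aa, the alpha chain of I-A, was at 10.4, 16.0, 17.4 and 24.4 FPKM in MyoCre 1 to 4 and at 10.03, 16.2, 18.8 and 22.5 FPKM in K15-SKO 1 to 4. The genotypes covered almost the same range, with the lowest value of each in replicate 1 and the highest in replicate 4. The labels do not say whether replicate numbers pair the mice. H2-Ab1, the beta chain of I-A, spread over 6.97 to 14.7 FPKM in MyoCre libraries and over 6.83 to 12.3 FPKM in K15-SKO libraries. H2-Eb1, the beta chain of I-E, spread over 5.46 to 10.8 FPKM and over 6.58 to 9.90 FPKM. Cd74, the invariant chain, was at 17.2, 26.3, 20.2 and 24.3 FPKM in MyoCre and at 14.5, 28.4, 22.9 and 21.9 FPKM in K15-SKO. The log2 fold changes lay between -0.13 for H2-Ab1 (95% interval -0.67 to 0.40) and 0.08 for H2-Eb1 (-0.38 to 0.54). The intervals of Cd74 (-0.51 to 0.45) and H2-Aa (-0.61 to 0.59) reach about as far above 0 as below it, so these data do not show that the genotypes have equal levels.

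Cxcl12, a chemokine made mainly by stromal and endothelial cells, was the most abundant member and the steadiest. It was at 35.6, 43.1, 39.4 and 44.7 FPKM in MyoCre 1 to 4 and at 42.0, 40.7, 43.4 and 53.2 FPKM in K15-SKO 1 to 4. It was 1 of only 3 tested members with a positive log2 fold change (0.14, 95% interval -0.23 to 0.50), with Cd52 and H2-Eb1. In K15-SKO 1 it stood at 103.2% of the MyoCre mean.

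The 8 members too low to judge had means under 1 FPKM and were left out of the test. Itgb2, the CD18 integrin chain, was just outside the limit with a mean of 0.96 FPKM, and Itgam was just inside it. Itgb2 was at 0.95 to 1.07 FPKM in MyoCre and at 0.43, 1.10, 1.09 and 0.96 FPKM in K15-SKO 1 to 4. Ccl2, the monocyte chemoattractant, was at 1.01, 0.96, 0.55 and 0.84 FPKM in MyoCre 1 to 4 and at 0, 0.16, 0.57 and 0.36 FPKM in K15-SKO 1 to 4. It had the smallest p of the 38 members when no filter was applied (unadjusted p = 0.00593, adjusted p = 0.666 by limma), but K15-SKO 3 and MyoCre 3 overlapped and the values rest on few fragments. Ccl7, its neighbour on chromosome 11, was at 0.13 to 0.16 FPKM in MyoCre and was listed at 0 in K15-SKO 1 to 3, while K15-SKO 4 had the highest value of the 8 libraries (0.47 FPKM). Cx3cr1, the fractalkine receptor, had a mean of 0.58 FPKM and Spi1 a mean of 0.40 FPKM. Trem2, a lipid-sensing receptor, had a mean of 0.30 FPKM and was listed at 0 in K15-SKO 1. Aif1, which encodes the IBA1 protein, had a mean of 0.24 FPKM. Cd3e, a subunit of the T cell receptor complex, was listed at 0 in 7 libraries and at 0.09 FPKM in K15-SKO 2. A value listed at 0 does not show that a gene was silent.

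Over all 30 tested members the median log2 fold change was -0.29, beside -0.12 for all tested genes, a difference of -0.17. Negative values were found for 27 of the 30, beside 77% of all tested genes, and 4 of the 30 were at -0.5 or below, beside 4.06%. By role, the medians relative to that of all genes were -0.21 for identity genes, -0.24 for resident macrophage genes, -0.29 for C1q, -0.37 for the Fc receptor group, -0.38 for lysosomal genes, -0.14 for general leukocyte genes and 0.10 for MHC class II. Without K15-SKO 1, the difference between the members and all genes was 0.06, with 31 members tested because Itgb2 then passed the limit, and 0 members had an unadjusted p under 0.05 and were lower in K15-SKO, beside 2.93% of all genes then tested. Without K15-SKO 3 it was -0.35, with 8 such members, beside 3.3%. With library weights it was -0.53, with 15, beside 8.34%. Leaving out MyoCre 2, the library with Y-linked expression, gave -0.15.

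**Figure D2:**
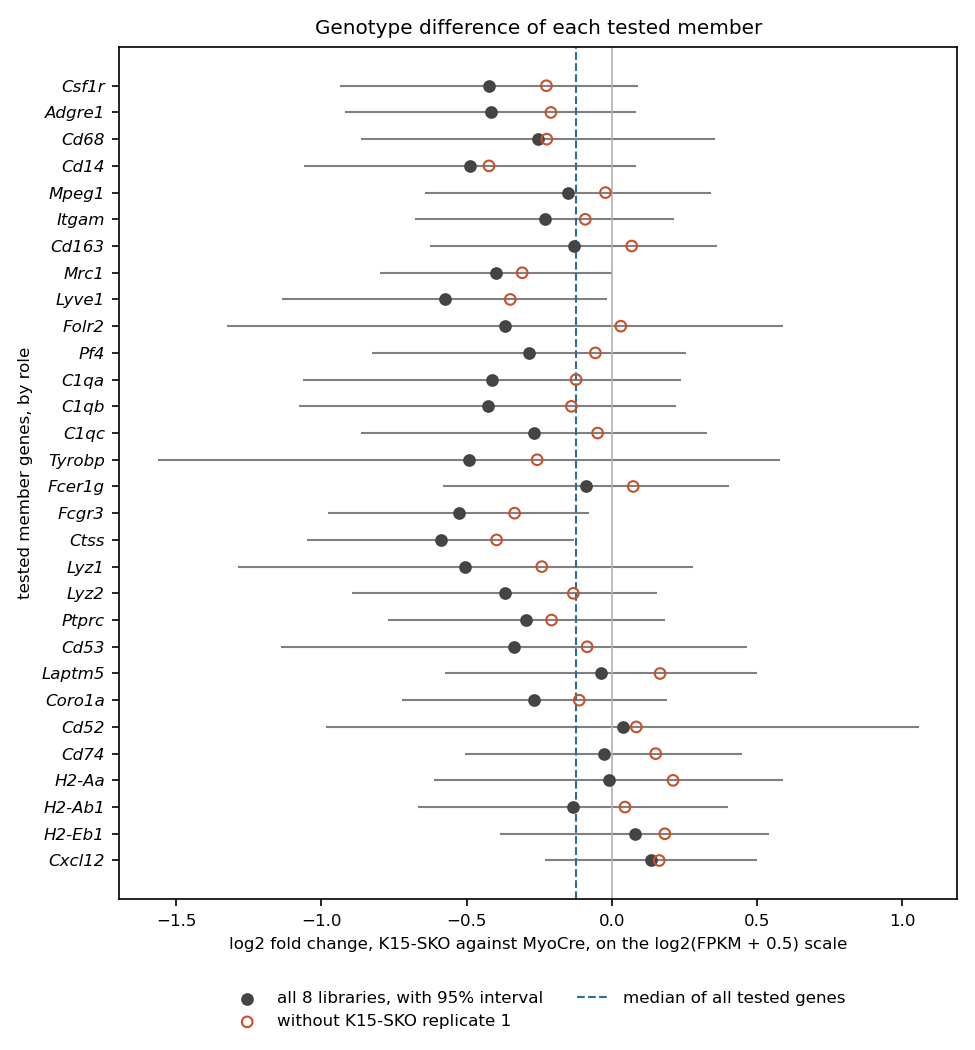
Log2 fold change of K15-SKO against MyoCre for the 30 tested members on the log2(FPKM + 0.5) scale. Filled circles with 95% intervals use all 8 libraries, open circles leave out K15-SKO 1, and the dashed line is the median of all tested genes (-0.12); the intervals of 27 genes reach 0.

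The lower median, though not every member's lower value, was carried by 1 mouse. Without K15-SKO 1, 11 of the 31 members then tested lay below the median of all genes (-0.15). Ctss, Fcgr3 and Lyve1 were then at -0.40, -0.33 and -0.35 (unadjusted p = 0.0726, 0.111 and 0.171 by limma). In K15-SKO 1 all 30 tested members lay below their own mean over the 8 libraries, and the median member stood at 48.9% of its MyoCre mean, from 19.3% for Folr2 to 103.2% for Cxcl12. On the log2 scale, relative to the median of all genes in each library, the tested members were at -0.08, 0.17, -0.01 and 0.37 in MyoCre 1 to 4 and at -0.70, 0.06, 0.43 and -0.13 in K15-SKO 1 to 4. On this measure K15-SKO 2 lay among the MyoCre libraries and K15-SKO 3 above all of them. The place of K15-SKO 3 depended on the median of all genes, which was -0.29 in that library. Without subtracting it, the members were at 0.14 in K15-SKO 3, below MyoCre 2, 3 and 4 (0.24, 0.17 and 0.33). The highest values were spread more widely: 13 of the 30 members were highest in MyoCre 4, beside 12% of all tested genes, and 7 in K15-SKO 3. For C1q the measure relative to all genes gave 0.12, 0.37, 0.10 and 0.01 in MyoCre and -1.11, 0.14, 0.84 and -0.45 in K15-SKO. For MHC class II it gave -0.58, 0.11, -0.18 and 0.46 in MyoCre and -0.61, 0.16, 0.39 and 0.11 in K15-SKO, so that MyoCre 1 was as low as K15-SKO 1.

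**Figure D3:**
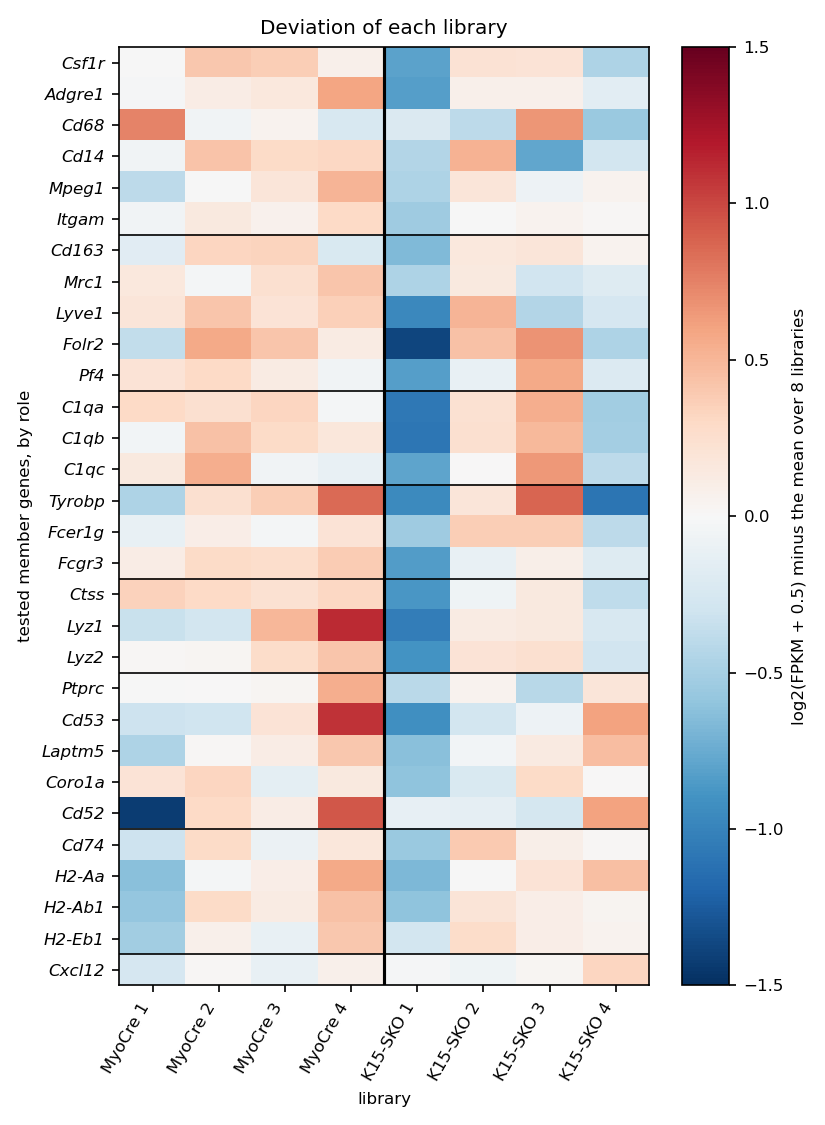
Deviation of each library from the gene's mean over the 8 libraries, in log2(FPKM + 0.5), for the 30 tested members ordered by role. Blue is below and red above the mean; the K15-SKO 1 column is below 0 for all 30 genes, and the MHC class II rows are blue in MyoCre 1 as well.

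Genes of other cell types also differed between these libraries. Of 10 fibroblast genes, 7 were lowest in K15-SKO 1, and their summed level was 677 to 1181 FPKM in MyoCre and 495 to 861 FPKM in K15-SKO. Relative to all genes, fibroblast genes stood at -0.59 in K15-SKO 1 and at -0.42 in K15-SKO 4. All 3 tested monocyte genes (Vcan, F13a1 and Ccr2) were lowest in K15-SKO 1. Of the 17 tested macrophage genes outside the members, 5 were, and their median there was -0.22 relative to all genes, beside -0.70 for the members. Endothelial genes were near the level of all genes in K15-SKO 1 (-0.12) and highest in K15-SKO 3 (0.70), and genes of slow fibres were at 0.12 in K15-SKO 1. The part of these cell types in the members' values was not tested. Markers of T cells, natural killer cells and neutrophils were nearly absent: 0 of 11 T cell genes, 0 of 7 natural killer cell genes and 0 of the 7 neutrophil genes in the table reached a mean of 1 FPKM, and their sums were at most 1.59, 1.21 and 4.42 FPKM in any library. Cd4 had at most 0.07 FPKM in any library. Of 8 mast cell genes 3 reached 1 FPKM (Mcpt4, Tpsb2 and Cma1), with sums of 4.60 to 7.04 FPKM in MyoCre libraries and 3.32 to 9.10 FPKM in K15-SKO libraries. These 3 stood at -0.68 relative to all genes in K15-SKO 1 and at 0.85 in K15-SKO 3. Ighm, of B cells, and Zbtb46, of dendritic cells and endothelium, were the only tested markers on their lists, with means of 1.54 and 2.71 FPKM.

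**Figure D4:**
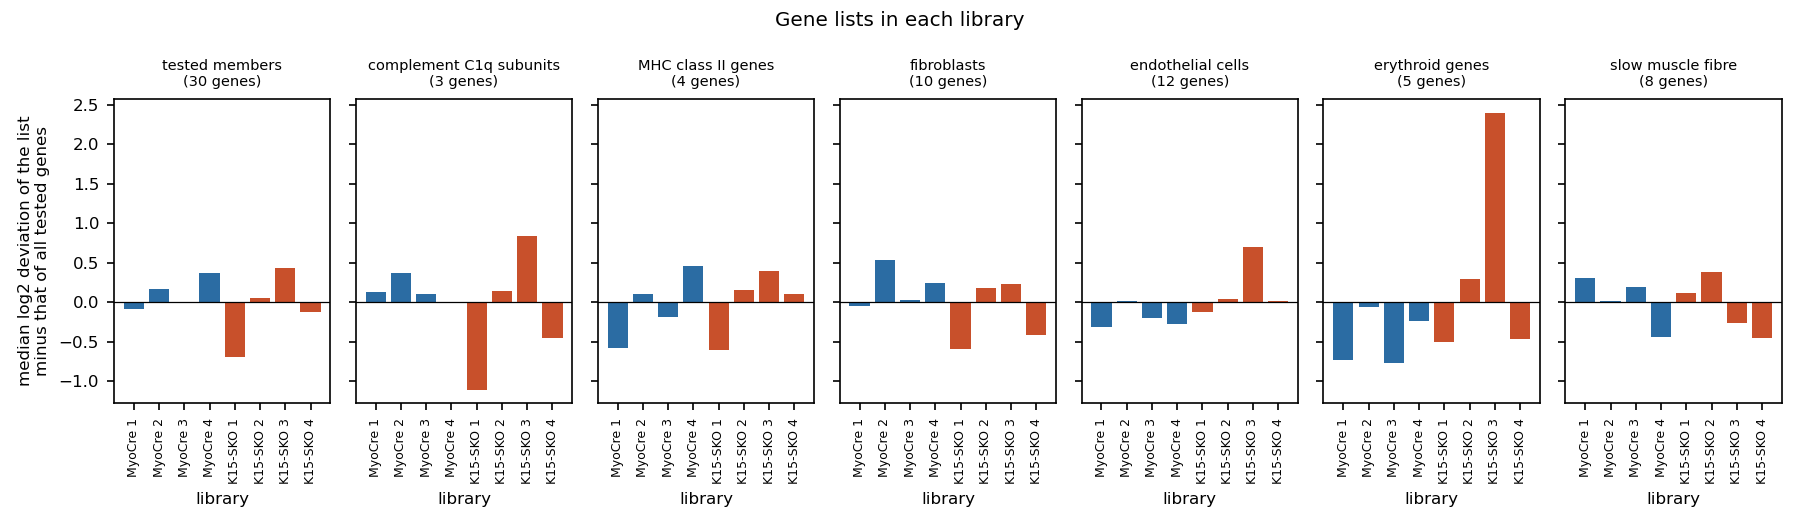
Median log2 deviation of each gene list in each library, relative to the median of all tested genes, with MyoCre in blue and K15-SKO in orange. Tested members, C1q and fibroblasts are lowest in K15-SKO 1 (-0.70, -1.11 and -0.59), MHC class II is about as low in MyoCre 1 (-0.58) as in K15-SKO 1 (-0.61), and erythroid genes stand out in K15-SKO 3 (2.40).

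The members varied together over the 8 libraries. The 435 pairs of tested members had a median Pearson r of 0.58 (range -0.74 to 0.99, n = 8 libraries), beside 0.23 for all pairs of tested genes, and 83 pairs (19.1%) had r of at least 0.8, beside 6.79% of all pairs. With genotype means removed the median was again 0.58. Without K15-SKO 1 it was 0.27, beside 0.26 for all pairs, and 135 pairs were negative in place of 35, so on the deposited scale the higher median rested on that library. With median-of-ratios scaling of all 8 libraries the median was 0.64, beside -0.001 for all pairs.

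Within it, 11 pairs passed an exact permutation test of r with adjustment over the 435 pairs, and 0 passed with Spearman's rho, while 148 had an unadjusted p under 0.05 for r. This test is against no correlation, whereas all pairs of tested genes already had a median r of 0.23. The share of all gene pairs past the same limits was not computed, so these counts do not show a closeness particular to the members. Folr2 and C1qb had r = 0.98 and rho = 0.98 (n = 8, exact permutation p = 4.96e-05, adjusted 0.0216 for r and 0.0575 for rho), with r = 0.97 without the 2 libraries farthest from the median of Folr2. Csf1r went with C1qb at r = 0.97 (rho 0.86, n = 8, exact permutation p = 0.000719, adjusted 0.0372) and with Folr2 at r = 0.94 (rho 0.83, exact permutation p = 0.000769, adjusted 0.0372). Without the 2 farthest libraries those values were 0.74 and 0.78. Pf4 went with C1qc at r = 0.95 (rho 0.93, exact permutation p = 0.000149, adjusted 0.0216). Without K15-SKO 1 these 4 pairs had r of 0.85 to 0.93. Pf4 was less close to Folr2 and to Csf1r, with r of 0.55 and 0.53 without that library. C1qb and C1qc, neighbouring genes, had r = 0.89 (rho 0.83, n = 8, exact permutation p = 0.00119, adjusted 0.0471), and 0.65 without the 2 farthest libraries.

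Laptm5 and H2-Aa had the highest r of all pairs, 0.99 (rho 0.95, n = 8, exact permutation p = 0.000149, adjusted 0.0216), and it was 0.96 without the 2 farthest libraries and 0.99 without K15-SKO 1. Itgam and H2-Ab1 had r = 0.84 (rho 0.86, exact permutation p = 0.000397, adjusted 0.0372). Csf1r and H2-Aa had r = 0.33 (rho 0.10, n = 8, exact permutation p = 0.447, adjusted 0.562), and Csf1r and Ptprc had r = 0.24 (rho 0.07, exact permutation p = 0.560, adjusted 0.658). Pairs within C1q had a median r of 0.89 and pairs within MHC class II 0.85, whereas pairs between C1q and MHC class II had 0.43. Without K15-SKO 1 these medians were 0.79, 0.80 and -0.07. Some other roles were closer to MHC class II: the median r was 0.62 for identity genes, 0.59 for the Fc receptor group, 0.58 for lysosomal genes and 0.59 for general leukocyte genes. Without K15-SKO 1 these were 0.36, 0.34, 0.22 and 0.44. Resident macrophage genes were nearly as far from MHC class II as C1q, at 0.48, and at 0.10 without K15-SKO 1. Between C1q and the general leukocyte genes the median was 0.22, and -0.40 without K15-SKO 1.

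Of the further pairs, Fcgr3 and Ctss, the members without overlap between genotypes, had r = 0.96 (rho 0.86, n = 8, exact permutation p = 0.000670, adjusted 0.0372), and 0.92 with genotype means removed. Adgre1 and Lyz2 had r = 0.95 (rho 0.93, exact permutation p = 0.000570, adjusted 0.0372). Csf1r and Adgre1, both classical macrophage markers, had r = 0.78 (rho 0.71, exact permutation p = 0.0201, adjusted 0.0962). This fell to -0.18 without the 2 libraries farthest from the median of Csf1r, and to 0.38 without K15-SKO 1. Cd163 and Mrc1, both scavenger receptors, had r = 0.32 (rho 0.14, exact permutation p = 0.451, adjusted 0.564). C1qa and C1qb, neighbours on the chromosome, had r = 0.95 (rho 0.81, exact permutation p = 0.00332, adjusted 0.0652) and 0.43 without the 2 farthest libraries. Tyrobp and its fellow adaptor Fcer1g had r = 0.89 (rho 0.81, exact permutation p = 0.00499, adjusted 0.0735), and Ptprc and Cd53 had r = 0.82 (rho 0.71, exact permutation p = 0.0147, adjusted 0.0865). Those stayed at 0.65 and 0.88 without the 2 farthest libraries. Csf1r and C1qa had r = 0.93 (rho 0.62, adjusted exact permutation p = 0.0735), and Ctss and Lyz2 r = 0.89 (rho 0.50, adjusted 0.0831). H2-Aa and H2-Ab1 had r = 0.87 (rho 0.52, adjusted 0.0831), and Cd74 and H2-Aa r = 0.68 (rho 0.40, adjusted 0.164). Without the 2 farthest libraries these pairs were at 0.23, -0.15, 0.22 and -0.36, in that order. Without K15-SKO 1 they were at 0.81, 0.63, 0.79 and 0.45. Leaving out the libraries farthest for the first gene of a pair narrows that gene's range, which can by itself lower r. Lyve1 and Cd163 had r = 0.60 (rho 0.38, adjusted exact permutation p = 0.243), and Csf1r and Cxcl12 had r = -0.35 (rho -0.21, adjusted exact permutation p = 0.516). Cxcl12 had a median r of -0.08 against the other 29 members, but this differed by role. The median was 0.49 with the general leukocyte genes and 0.47 with MHC class II. For the other roles it lay between -0.23 (C1q) and -0.12 (identity genes). Without K15-SKO 1 the general leukocyte and MHC class II medians were 0.59 and 0.53. With genotype means removed, Itgam (0.97), Adgre1 (0.96) and Fcgr3 (0.96) were, among the tested members, closest to the mean score of the tested members. Each member is part of that score, which by itself raises its r. The MHC class II genes had r of 0.81 to 0.91 with the score, and the C1q genes 0.64 to 0.87. Ptprc (0.47), Cd52 (0.41), Cd14 (0.33) and Cxcl12 (0.33) were lower, and Cd68 (-0.08) was farthest from it.

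**Figure D5:**
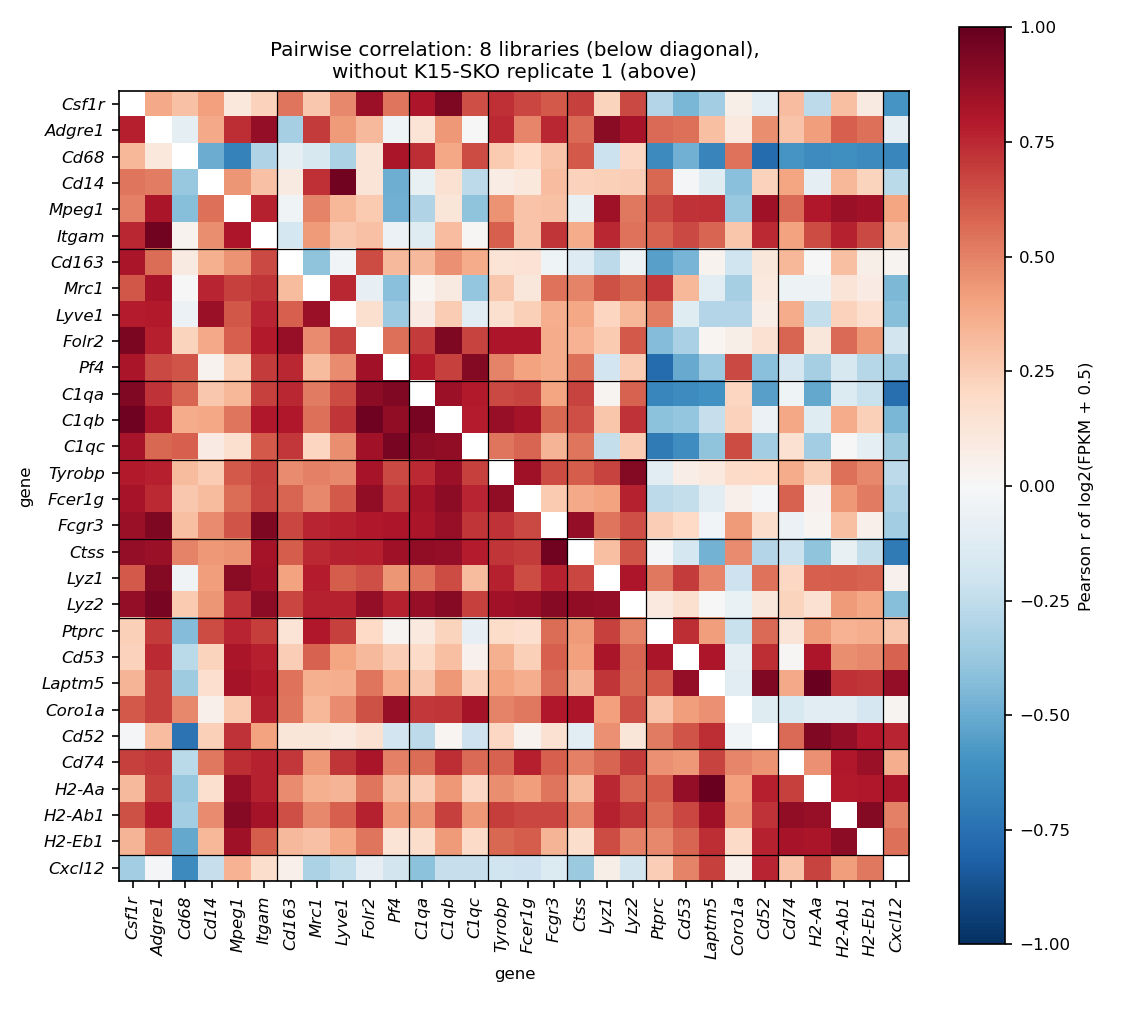
Pearson r of log2(FPKM + 0.5) between tested members, with all 8 libraries below the diagonal and without K15-SKO 1 above it, ordered by role. Red is positive and blue negative; the median over the 435 pairs is 0.58 below the diagonal and 0.27 above it, and the C1q and MHC class II blocks stay red on both sides.

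Outside the members, the 5 genes whose values followed the members' mean score most closely, with genotype means removed, were Fbn1 (r = 0.97), Cenpa (0.97), Ackr3 (0.95), Mfap5 (0.94) and Efemp1 (0.94), over 8 libraries. They are the top of a ranking drawn from the 12535 tested genes, and with 8 libraries so wide a search can by itself give high r. A link of these genes to the members was not tested. Fbn1, Mfap5 and Efemp1 encode proteins of elastic fibres and microfibrils, Ackr3 encodes a second receptor for Cxcl12, and Cenpa a histone of centromeres. Fbn1 stood at 16.5 FPKM in K15-SKO 1, beside group means of 38.4 ± 6.33 FPKM for MyoCre and 28.7 ± 9.53 FPKM for K15-SKO (SD, n = 4).

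Related genes were read from lists of the same pathways. Of 17 tested further macrophage genes, 1 was called: Cyba, a subunit of the NADPH oxidase, which was listed at 0 in all MyoCre libraries and stood at 3.37, 6.32, 12.3 and 3.98 FPKM in K15-SKO 1 to 4. In all, 46 of the 69 genes called in the table were likewise listed at 0 throughout 1 genotype, so no fold change is given. Its partner Cybb was at 1.39, 1.24, 1.67 and 2.36 FPKM in MyoCre and at 0.77, 1.35, 0.84 and 0.84 FPKM in K15-SKO, and did not pass. The median of the 17, relative to all genes, was -0.04.

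In the other 10 tested complement genes 0 were called, with a median of -0.17 relative to all genes. Cfp, the properdin gene, was at 2.33, 2.41, 2.65 and 2.76 FPKM in MyoCre 1 to 4 and at 0.52, 2.04, 2.23 and 1.30 FPKM in K15-SKO 1 to 4, without overlap (unadjusted p = 0.0253, adjusted p = 0.937 by limma). C3, the central complement component, had 5.23 ± 0.71 FPKM in MyoCre and 3.27 ± 1.73 in K15-SKO (SD, n = 4). Of the 3 monocyte genes Vcan, a matrix proteoglycan also made by fibroblasts, was at 4.33, 4.95, 3.08 and 5.85 FPKM in MyoCre and at 1.72, 3.01, 1.78 and 2.57 FPKM in K15-SKO. It did not overlap and had a log2 fold change of -0.86 (SE 0.22, unadjusted p = 0.00179, adjusted p = 0.220 by limma). F13a1, a coagulation factor chain made by monocytes and resident macrophages, stood at 2.33, 6.12, 4.65 and 3.74 FPKM in K15-SKO, beside 6.02 to 6.79 FPKM in MyoCre. Ccr2, the remaining monocyte gene, overlapped between genotypes, with 2.90 ± 1.68 FPKM in MyoCre and 2.60 ± 1.94 in K15-SKO (SD, n = 4). It did not pass the test (adjusted p = 0.957 by limma).

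Among 9 further chemokine and receptor genes 0 were called (median -0.13 relative to all genes), and Ccl6 had 6.17 ± 2.65 FPKM in MyoCre and 3.88 ± 1.68 in K15-SKO (SD, n = 4). MHC class II machinery (4 tested, median 0.02), MHC class I (8 tested, median 0.21), interferon response genes (7 tested, median -0.02) and injury-associated macrophage genes (8 tested, median 0.02) likewise held 0 called genes. H2-K1, a class I heavy chain, had 23.4 ± 3.67 FPKM in MyoCre and 29.7 ± 10.1 in K15-SKO (SD, n = 4). Inflammatory cytokines were mostly too low: 7 of the 9 in the table were under a mean of 1 FPKM, and of the 2 tested Il33, an alarmin of stromal cells, was at 2.74 to 3.38 FPKM in MyoCre and 1.86 to 2.43 FPKM in K15-SKO, without overlap and without passing the test (adjusted p = 0.957 by limma).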

How the data were processed

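RNA was measured in 8 soleus samples, 4 MyoCre and 4 K15-SKO. The authors deposited 1 table of values taken here to be FPKM. The unit was inferred: per the submitters' processing notes STAR, Cufflinks, Cuffdiff and mm10 were used, and the values are not whole numbers. The annotation release, strand setting and scaling were not given in the sources used here, so overlapping genes cannot be told apart (exons of Csf1r, Itgam, Folr2, Coro1a, Cd52 and Cd74 overlap those of other genes). Libraries were assigned to genotypes by their labels, and the table holds 0 further columns of values. FPKM keeps no depth. It was estimated from the smallest steps of FPKM times length, which were clear in 5 of 8 libraries (8130000 to 22400000 fragments).

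The 12535 genes averaging 1 FPKM or more were tested as log2(FPKM + 0.5) with limma 3.58.1 under R 4.3.3, with trend and robust variance, genotype alone, two-sided, and Benjamini-Hochberg adjustment. A fold change on this scale understates that of low genes. Correlations of log2(FPKM + 0.5) were tested exactly over all 40320 orders of the libraries (smallest p 2.48e-05), adjusted over 435 pairs. The scripts were tested on simulated data. Promoters and coordinates came from RefSeq and GENCODE, and 23896 of 24033 table rows matched the annotation.

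Named genes were all members, Klf15, up to 4 tested genes of each of 24 further lists with the smallest p, the most abundant gene of each other cell type, 5 genes most like the members' score, and 15 pairs fixed for correlation, of which Ccl2 with Ccl7 was too low to use. Pairs beyond these and Cd4 were named after their values were seen. The members and lists were chosen with earlier results of these data known. The 19 alternatives were a pseudocount of 1 or 0.1, no filter, a minimum mean of 5 FPKM, median-of-ratios, upper-quartile and quantile scaling, no robust estimation, library weights, a replicate block, leaving out genes listed at 0 in a genotype, and leaving out each library.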

Additional observations from a re-analysis of the deposited data

Results flagged for a closer look

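In 6 of 77 groups of 4 libraries, 1 library stood apart from the other 3 by Dixon's criterion, which chance alone meets in about 1 group of 20 (3.85 of 77). Itgam was at 0.581 FPKM in K15-SKO 1, below the other K15-SKO libraries (1.06 to 1.13 FPKM). Ptprc was at 1.92 FPKM in MyoCre 4, above 1.14 to 1.19 FPKM in the other MyoCre libraries, and Cd52 was at 2.88 FPKM in K15-SKO 4, above 1.35 to 1.55 FPKM. The other flags were in members too low to judge: Cx3cr1 at 0.802 FPKM in MyoCre 2, Ccl7 at 0.471 FPKM in K15-SKO 4 with 0 in the other K15-SKO libraries, and Cd3e at 0.0898 FPKM in K15-SKO 2. For Cd3e too the other K15-SKO libraries were listed at 0. A group with 3 libraries at 0 and 1 above always meets the criterion, so the rate of 1 in 20 does not hold for Ccl7 and Cd3e.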

How the results depend on the processing

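Counting error at low FPKM and 4 mice per genotype limit these results. The count of members past the threshold was 0 under every alternative except library weights, which gave 2 (Ctss, log2 fold change -0.97, adjusted p = 0.0156, and Fcgr3, -0.85, adjusted p = 0.0396 by limma). Those weights gave K15-SKO 1 the most influence (4.64) and K15-SKO 3 the least (0.197), and 157 genes (101 lower in K15-SKO) were then called in all, beside 69 without weights, 39 with a minimum mean of 5 FPKM and 12 without genes listed at 0 in a genotype. Members without overlap and lower in K15-SKO numbered 1 with a minimum mean of 5 FPKM, 0 with median-of-ratios, 0 with upper-quartile and 0 with quantile scaling, and 2 to 5 when a library was left out (5 without K15-SKO 2, 4 without MyoCre 1). The median r of the member pairs ran from 0.27 (without K15-SKO 1) to 0.67, and the members' median relative to all genes from -0.35 (without K15-SKO 3) to 0.06 (without K15-SKO 1) when a library was left out, with -0.53 under library weights. The replicate block gave 78 calls in all and 0 members. With genotype means removed, same-numbered libraries correlated at 0.10, 0.23, 0.00 and 0.28. Of the libraries, 3 MyoCre and 2 K15-SKO correlated best with their own number. With so few libraries and the means removed, these values cannot tell whether the numbers pair the mice.

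Klf15 missed the threshold with no filter (-1.28, adjusted p = 0.129), with median-of-ratios (-1.15, 0.0868), upper-quartile (-1.16, 0.0786) and quantile scaling (-1.15, 0.0990), without robust estimation (-1.28, 0.0879) and without genes listed at 0 (-1.28, 0.0943), and ran from -1.55 to -1.18 (0.000771 to 0.199) when a library was left out. The cause was not tested.

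The sign of the log2 fold change was kept under all alternatives for 21 of the 30 members and turned in at least 1 for 9, none of them near the threshold. With median-of-ratios, upper-quartile and quantile scaling it was 0.033, 0.021 and 0.022 for Fcer1g, 0.083, 0.072 and 0.070 for Laptm5, 0.11, 0.095 and 0.095 for Cd74, and 0.12, 0.11 and 0.12 for H2-Aa. H2-Ab1 was at 0.0020 with quantile scaling and Cd52 at -0.0065 with a pseudocount of 1. Leaving out 1 library gave ranges of -0.23 to 0.069 for Cd163, -0.65 to 0.031 for Folr2, -0.23 to 0.074 for Fcer1g, -0.20 to 0.17 for Laptm5, -0.43 to 0.36 for Cd52, -0.16 to 0.15 for Cd74, -0.22 to 0.21 for H2-Aa, -0.35 to 0.045 for H2-Ab1 and -0.082 to 0.23 for H2-Eb1. The upper end was reached without K15-SKO 1 for all of these except Cd52 and H2-Eb1.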
